A study of Homo sapiens with 8 samples.

Results

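The peaks named for 5 growth-signal genes, DUSP5, DUSP6, BTG1, CEBPD and SGK1, were examined in ChIP-seq of the transcription factor dnTCF1E in DLD-1 cells, a human colon cancer line with high Wnt signalling. Every peak whose nearest gene in the HOMER annotation carried 1 of these 5 symbols was taken, which gave 18 of the 23433 listed peaks, at 14 distinct regions. The 5 genes are a small part of the 10699 genes named for a peak in any list. The experiment compared 2 FLAG-tagged proteins, dnTCF1EWT and dnTCF1Emut, a version whose C-clamp was mutated so that this domain no longer contacts DNA. Each was carried by its own clonal line under a doxycycline-inducible promoter. The cells of both lines were grown with blasticidin and zeocin in serum free of doxycycline, and were taken without induction (0 h) or after 2 or 9 h of doxycycline at 1 ug/mL. Both forms lack the domain that binds β-catenin, and all cells kept their endogenous TCFs. Protein and clonal line change together in this design, so they cannot be told apart.

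TCF/LEF factors carry the Wnt signal to DNA. An HMG box binds the Wnt response element, or WRE, and in the E isoforms of TCF1 a second domain, the C-clamp, binds a GC-rich Helper site. A dominant negative form occupies the same elements without recruiting β-catenin. The 5 genes are grouped here as early response genes of growth signalling, a label that was not tested in these data. DUSP5 and DUSP6 encode MAP kinase phosphatases that switch ERK off, DUSP5 in the nucleus and DUSP6 in the cytoplasm, and both are themselves induced by ERK. BTG1 encodes an antiproliferative partner of the mRNA deadenylation machinery, CEBPD the leucine zipper transcription factor C/EBPδ, and SGK1 a serum- and glucocorticoid-inducible kinase of the phosphoinositide 3-kinase pathway.

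The authors called peaks with MACS on pooled duplicates, so that each condition is 1 list, with no spread between replicates and no test between conditions. The lists held between 354 and 12996 peaks. The MACS score grows with the significance of a peak as a negative log of its P-value, without scaling for depth, and starts at about 50. The lists do not give the number of reads, so the depth is unknown. A gene without a listed peak is therefore below the threshold, which is not evidence that the protein was absent. The dnTCF1EWT lists were rich in Alu elements, short repeats of the human genome. Between 48.5% and 76.0% of their peaks were centered in one, against 0.478% to 1.27% in the dnTCF1Emut lists. Of the 18 peaks of the 5 genes, 10 were centered in an Alu element and 8 were not, and the part of these repeats in the results was not tested.

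To show what the motifs look like at these genes, the 250 bases before the transcription start site (TSS) were read from RefSeq on GRCh38.p14, for DUSP6 (chr12:89352502-89352751, minus strand) and for the most upstream and most downstream of 3 SGK1 start sites (chr6:134318113-134318362 and chr6:134174867-134175116, minus strand). The start sites of 3 of the 5 genes, DUSP6, BTG1 and SGK1, were examined in this way, and those of the remaining genes were not. Each sequence is written 5′ to 3′, and capitals mark the short Helper site RCCG on either strand, including where matches overlap.
DUSP6: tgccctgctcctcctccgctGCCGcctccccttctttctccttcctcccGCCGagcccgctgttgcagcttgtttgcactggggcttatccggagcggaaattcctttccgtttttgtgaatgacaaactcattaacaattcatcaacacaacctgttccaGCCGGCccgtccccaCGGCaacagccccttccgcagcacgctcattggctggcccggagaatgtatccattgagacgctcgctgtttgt
SGK1 most upstream site: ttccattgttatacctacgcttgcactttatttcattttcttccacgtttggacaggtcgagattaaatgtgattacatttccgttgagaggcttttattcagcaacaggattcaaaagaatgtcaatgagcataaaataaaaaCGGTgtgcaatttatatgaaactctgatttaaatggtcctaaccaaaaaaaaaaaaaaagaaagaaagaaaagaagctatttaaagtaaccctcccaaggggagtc
SGK1 most downstream site: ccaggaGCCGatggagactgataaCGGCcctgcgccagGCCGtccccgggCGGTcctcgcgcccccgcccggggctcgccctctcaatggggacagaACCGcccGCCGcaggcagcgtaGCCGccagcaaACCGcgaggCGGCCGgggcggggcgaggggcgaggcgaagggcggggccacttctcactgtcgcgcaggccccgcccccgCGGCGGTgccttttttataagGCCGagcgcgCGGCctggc
The DUSP6 sequence held 5 short Helper sites, 1 of them within the longer Helper site RCCGCC, and had a GC content of 57.2%. The corresponding BTG1 sequence was similar, with 6 short Helper sites, 1 Helper site and 56.4% GC. The SGK1 start sites differed widely among themselves. The most upstream sequence held 1 short Helper site at 33.6% GC, the next held none at 41.6% GC, and the most downstream held 14 short Helper sites and 5 Helper sites at 76% GC. No WRE (CTTTGWWS) was found in any of these sequences. Over 35116 promoters of the same length, 74.2% held a short Helper site, 35.9% a Helper site and 5.56% a WRE, so that matches of this kind are common and describe letters only. The peak center nearest to a TSS, at DUSP6, lay 0.456 kb from it on hg19, outside a window of this length.

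After induction, dnTCF1EWT peaks were listed at all 5 genes and dnTCF1Emut peaks at none of them. The 5 genes were chosen with earlier results of these data known, so these counts are a description with no weight of their own. For dnTCF1EWT, the 5 genes had 1 peak before induction, 7 after 2 h and 9 after 9 h. For dnTCF1Emut, they had 1 peak before induction and 0 at both later times. Of the genes named in the dnTCF1EWT 2 h list, 61.5% were also named at 9 h, and all 5 genes here were among them. Over all 20056 protein-coding genes of RefSeq, matched by symbol or synonym, 17.4% were named for dnTCF1EWT at 2 h and 33.5% at 9 h, against 6.76% at 0 h. The dnTCF1Emut lists were short and named 2.40%, 5.86% and 1.24% of them at 0, 2 and 9 h, so that 0 of 5 is close to the share over all genes. The dnTCF1Emut 2 h list named 19.9% of the dnTCF1EWT 2 h genes and the 9 h list named 4.33%, in each case 0 of these 5. Among the dnTCF1EWT 2 h genes, 14.9% were named already at 0 h, here 1 gene, SGK1.

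**Figure D1:**
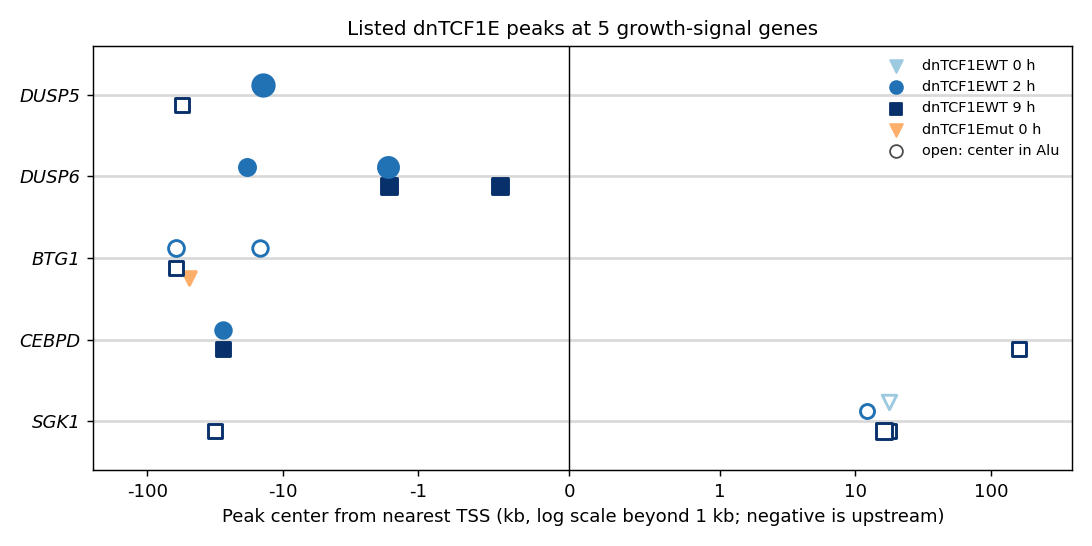
Distance of each listed peak center from the nearest TSS of the named gene, in kb (negative is upstream; the axis is linear within 1 kb and logarithmic beyond), with 1 line per gene. Color and shape give the list, size follows the peak score and open symbols mark centers in an Alu element; DUSP6 has peaks within 2 kb of its TSS and none in an Alu element, and all 5 SGK1 peaks are open.

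The 2 phosphatase genes had the highest scores of the set at 2 h. The only dnTCF1EWT 2 h peak named for DUSP5 lay 14.0 kb upstream, between genes (hg19 chr10:112243446-112243855), in an old MIR repeat. Its score of 128 ranked 698 of 5585 peaks, the top 12.5% of the list. This 410 bp peak was the highest scoring of the 18 and held no WRE, no short Helper site and no Helper site, at a GC content of 41.2%. At 9 h it was not listed. The 9 h list instead had a peak 55.3 kb upstream of DUSP5 (chr10:112202287-112202455), centered in an AluSx1 element, with a score of 58.9 and rank 5066 of 12996, also without any of the 3 motifs. The 2 and 9 h lists thus shared no DUSP5 region.

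DUSP6 was the gene with peaks closest to its start. At 2 h a peak of score 112, ranked 811, lay 1.69 kb upstream (chr12:89747868-89748109) in a CpG island. It had a GC content of 71.1% and 10 short Helper sites, the largest number among the 18 peaks, but no WRE and no RCCGCC. The same region was listed at 9 h (chr12:89747847-89748026) with a score of 69.7, rank 2229 and 7 short Helper sites in its shorter span. By score it stood in the top 14.5% of the list at 2 h and in the top 17.2% at 9 h.

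Each of the other DUSP6 peaks was listed at 1 time. At 2 h a peak 18.5 kb upstream (chr12:89764635-89764919) had a score of 71.9, rank 1534, and held 1 WRE, the only WRE in the peaks of the 5 genes. At 9 h a peak 0.456 kb upstream (chr12:89746666-89746838), annotated as promoter, had a score of 62.8, rank 3793, with 2 short Helper sites, and it held the only Helper site in the set. The WRE and the Helper site were thus found at the same gene but in different regions and in lists of different times. No DUSP6 peak was centered in an Alu element.

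BTG1 was the only gene of the set with a listed dnTCF1Emut peak, and that peak came from cells without doxycycline. At 2 h dnTCF1EWT had a peak 14.7 kb upstream (chr12:92554279-92554497) with a score of 67.02, rank 1796 and 4 short Helper sites, in an AluSx element. A further 2 h peak, 61.8 kb upstream (chr12:92601409-92601618), in an AluJb element, scored 69.7 at rank 1635 and held none of the motifs. It was the only BTG1 region also listed at 9 h, with a score of 50.2 and rank 12783 of 12996, close to the lowest score that the lists admit. The dnTCF1Emut 0 h peak lay 49.6 kb upstream (chr12:92589050-92589481) in a simple TA repeat with a GC content of 7.87%. Its score of 52.4 ranked 665 of 708, and no dnTCF1EWT peak overlapped it. The median GC content of that list was 6.32%.

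CEBPD had 1 distal region listed at both induction times. It lay 27.8 kb upstream of the TSS, in an MER11B element of the endogenous retrovirus class (chr8:48678299-48678684 at 2 h). The score was 67.5 at 2 h, rank 1767, and 59.0 at 9 h, rank 5031. Each of the 2 peaks held 3 short Helper sites and neither held a WRE or a Helper site. The gene was also named for a 9 h peak 161.5 kb downstream, inside an intron of another gene and in an AluSx element (chr8:48489157-48489284), with a score of 52.0 and 1 short Helper site. At that distance the name says only that CEBPD has the nearest TSS.

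All SGK1 peaks were centered in Alu elements, and SGK1 was the only gene of the set with a peak in uninduced dnTCF1EWT cells. That 0 h peak lay 17.7 kb downstream of the most upstream start site (chr6:134621427-134621625), in the first intron, with a score of 58.6 and rank 662 of 1907. At 2 h the only peak was elsewhere, 12.2 kb downstream of the most downstream start site (chr6:134483735-134483856), with a score of 54.8 and rank 3690. It was the lowest scoring 2 h peak of the set and held none of the motifs.

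At 9 h SGK1 was named for 3 peaks. The highest, 16.4 kb downstream of the most upstream start site (chr6:134622689-134622923), had a score of 68.3, rank 2444. The region of the 0 h peak was listed again (chr6:134621402-134621581) with a score of 52.6, rank 9313. The score was therefore lower at 9 h than before induction, with a log2 ratio of -0.16, where the median over the 161 regions shared by the 9 and 0 h lists was 0.11. The remaining peak, 31.5 kb upstream of the middle start site and in the second intron of the longest transcript (chr6:134530397-134530558), had a score of 50.5, rank 12251. No SGK1 region was listed at both 2 and 9 h. The 9 h peaks held 1, 1 or 0 short Helper sites and no WRE.

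**Figure D2:**
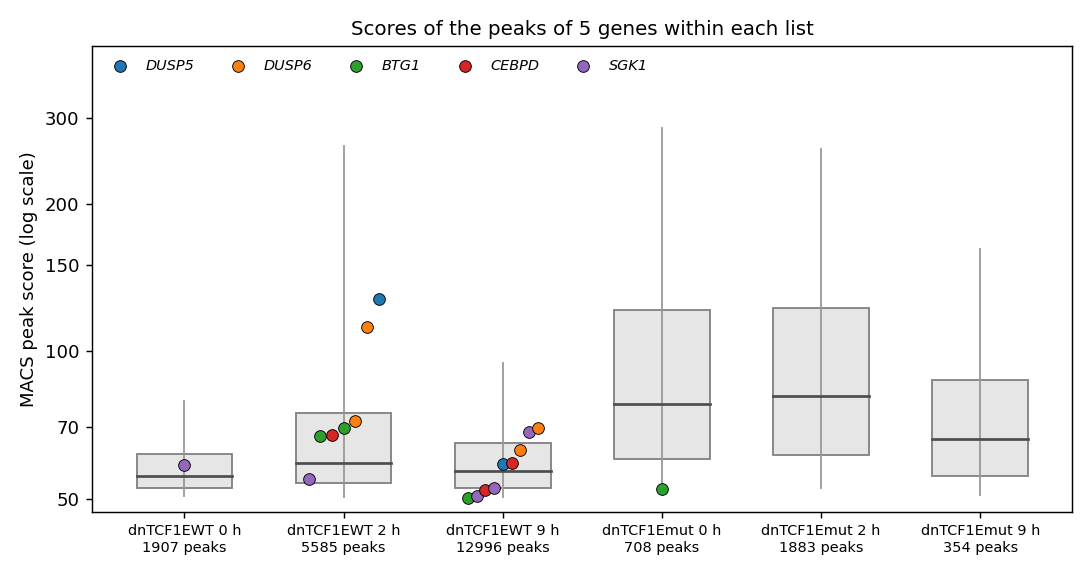
MACS peak score (log scale) of each peak of the 5 genes, as points colored by gene, over all peaks of its list. Boxes span the quartiles with the median as a line, and whiskers reach from the 5th to the 95th percentile; 6 of the 7 peaks at 2 h lie above the dnTCF1EWT 2 h median of 59.0, and the SGK1 peak lies below it.

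Within the lists, the peaks stood higher at 2 h than at 9 h. Their median score was 69.7 at 2 h, against 59.0 for all peaks of that list, and 58.9 at 9 h, against 56.9. At 2 h 6 of the 7 peaks scored above 67, where 32.3% of the list did, and at 9 h 2 of 9 did, against 20.4% of the list. The same 2 h count was found within 30 kb of a TSS, 6 of 7 peaks against 44.3% of the list, and at 9 h it was 5 of 9 against 48.3%. These 2 h counts are a description with no weight of their own, because a score above 67 and a TSS within 30 kb were among the limits by which the study picked candidate targets. DUSP5, DUSP6, BTG1 and CEBPD meet both at 2 h and SGK1 does not. The BTG1 and CEBPD peaks that meet them did so narrowly, with scores of 67.02 and 67.51.

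By the highest score per gene, the order at 2 h was DUSP5, DUSP6, BTG1, CEBPD and SGK1, with ranks of 635, 728, 1418, 1530 and 3003 among 4295 named genes. At 9 h the order was DUSP6, SGK1, CEBPD, DUSP5 and BTG1, with ranks of 1949, 2130, 4004, 4028 and 8082 among 8182. SGK1 moved from the last place to the second and BTG1 from the third to the last. CEBPD and DUSP5 were almost level at 9 h, with scores of 59.0 and 58.9. With 1 list per condition, no interval can be put on any of these places.

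Of the 7 peaks at 2 h, 3 overlapped a 9 h peak, at DUSP6, BTG1 and CEBPD, against 14.9% of that list. In the other direction 3 of the 9 peaks at 9 h overlapped a 2 h peak, against 6.47%. These shares cover peaks of every score, whereas 6 of the 7 peaks at 2 h scored above 67, against 32.3% of that list. The overlap share among peaks above 67 was not computed, so the overlap counts have no weight of their own. The score was higher at 2 h in all 3 regions, by a log2 ratio of 0.68 at DUSP6, 0.47 at BTG1 and 0.19 at CEBPD. The median over all 833 shared regions was 0.33, with quartiles of -0.15 and 1.26, and 66.1% of them were higher at 2 h, so all 3 regions lay between the quartiles. Relative to that median, DUSP6 and BTG1 were above it by 0.36 and 0.15 and CEBPD was at -0.13. None of the 7 peaks at 2 h overlapped a dnTCF1Emut 2 h peak, against 9.44% of the list. At 9 h 1 of 9 peaks, that of SGK1, overlapped a 0 h peak, against 1.24%.

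**Figure D3:**
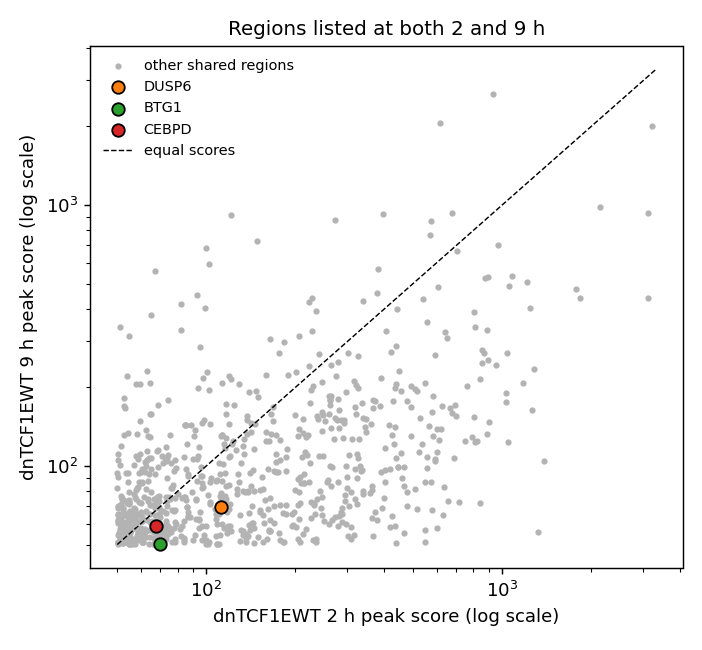
Peak scores at 2 h (x axis) and 9 h (y axis), both on log scales, of the 833 regions listed for dnTCF1EWT at both times, in gray, with the regions of DUSP6, BTG1 and CEBPD in color. All 3 colored points lie below the line of equal scores, among the other regions.

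The motif content of the peaks was modest apart from DUSP6. At 2 h 1 of 7 peaks held a WRE, against 16.3% of all peaks in the list, 3 of 7 a short Helper site against 54.1%, and 0 of 7 a Helper site against 7.23%. At 9 h 0 of 9 held a WRE, against 6.56%, 6 of 9 a short Helper site against 55.4%, and 1 of 9 a Helper site against 4.83%. These counts are too small to be set apart from the shares in their lists. The CpG island region of DUSP6 held 10 of the 17 short Helper sites in the peaks at 2 h, where the BTG1 and CEBPD peaks with a match held 4 and 3, and 7 of the 15 at 9 h. Centers in an Alu element made up 3 of 7 peaks at 2 h, against 48.5%, and 6 of 9 at 9 h, against 76.0%. Without them 4 peaks remained at 2 h and 3 at 9 h, at DUSP5, DUSP6 and CEBPD in the first case and at DUSP6 and CEBPD in the second.

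Around the 5 genes no listed peak carried the name of a different gene within 100 kb of a TSS, in any of the 6 lists. The nearest dnTCF1Emut peak to a TSS of these genes lay at least 212 kb away at 2 h and at least 400.3 kb away at 9 h. For dnTCF1EWT the nearest center lay between 1.69 and 27.8 kb at 2 h. At 9 h it lay between 0.456 and 61.9 kb, with DUSP6 the nearest and BTG1 the farthest.

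For each gene the gene with the most similar set of highest scores over the 6 lists was found, with 50 in place of an unlisted peak and the distance taken on the log2 scale. For DUSP5 it was C7orf33, which scored 125 at 2 h and 58.7 at 9 h, at a distance of 0.034. For DUSP6 it was HIST1H4J, a histone H4 gene, with 110 and 71.3 at a distance of 0.039. For CEBPD it was LOC344887, with 67.2 and 59.0 at a distance of 0.0078. For BTG1 it was ARPC3, a subunit of the Arp2/3 complex, at 0.068, and for SGK1 it was CNTN6, a contactin, at 0.078. These are neighbors in score alone.

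Of 57 related genes, taken from the families of the 5 genes and from growth signalling, 21 (36.8%) were named in the dnTCF1EWT 2 h list. At 9 h 25 (43.9%) were named. The shares over all protein-coding genes were 17.4% and 33.5%. At 0 h 5 of them (8.77%) were named, beside 6.76%. The dnTCF1Emut 2 h list named 11 (19.3%), beside 5.86%, and the 0 and 9 h lists named 2 each. Within 30 kb of the TSS the dnTCF1EWT lists named 9 of the 57 at 2 h and 19 at 9 h, where the shares over all genes were 9.34% and 21.5%. None of the other BTG and TOB genes, C/EBP genes or SGK and AKT kinases (5 each) was named at 2 h, and 1 of each family was at 9 h, namely BTG3, CEBPB and SGK2. With 5 genes a family, these counts cannot be set apart from the shares over all genes. The feedback inhibitors of the Sprouty and SPRED family, which restrain the pathway upstream of ERK, were named for 5 of 6 genes at 2 h and at 9 h when peaks at any distance were counted. Within 30 kb this dnTCF1EWT count was 1 gene at 2 h, SPRED2, and 4 at 9 h. At any distance, 2 of the 6 were also named for dnTCF1EWT at 0 h, beside 6.76% of all protein-coding genes. The dnTCF1Emut 2 h list named 2 of the 6, beside 5.86%, and its 0 and 9 h lists named 1 each.

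Of the 8 other MAP kinase phosphatase genes, 2 were named for dnTCF1EWT at 2 h (DUSP4 and DUSP16), 2 at 9 h, and 4 for dnTCF1Emut at 2 h (DUSP1, DUSP4, DUSP10 and DUSP16). The shares over all protein-coding genes in these lists were 17.4%, 33.5% and 5.86%. Within 30 kb of the TSS each of the 3 lists named 2 of the 8. The dnTCF1EWT counts are too small to be set apart from the shares over all genes. The dnTCF1Emut 2 h count, 50% of the 8 at any distance, lay above its share of 5.86%. That difference was not tested, and the list of genes was chosen with earlier results of these data known. No share within 30 kb was computed for dnTCF1Emut. DUSP16, a phosphatase of the JNK and p38 kinases, had a dnTCF1EWT 2 h peak in its first intron, 1.42 kb downstream of the TSS. Its score was 214, rank 368 of 5585. A dnTCF1Emut 2 h peak at 1.40 kb had a score of 138, rank 383 of 1883. Both phosphatases of the 5 genes were named for dnTCF1EWT alone. The dnTCF1Emut lists named 2.40%, 5.86% and 1.24% of all protein-coding genes at 0, 2 and 9 h, so absence from them is the usual case.

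The other related genes with a dnTCF1EWT 2 h peak above 67 within 30 kb were SPRED2, IER3, IER5 and NR4A3. SPRED2 had an intronic peak of score 122 at 2 h and 121 at 9 h. IER3 and IER5, immediate early genes, had peaks of score 123 and 113, each with 1 WRE and 2 short Helper sites. No peak of the 5 genes held both motifs. NR4A3, an orphan nuclear receptor, scored 69.5 for dnTCF1EWT and 131 for dnTCF1Emut at 2 h. These peaks ranked 1640 of 5585 and 418 of 1883. The median scores of the 2 lists were 59.0 and 81.1, so scores from them are not on 1 scale. Of the 25 immediate early genes, 12 were named for dnTCF1EWT at 2 h and 12 at 9 h, counting peaks at any distance. Of 3 transcriptional outputs of ERK (ETV4, ETV5 and PHLDA1), 2 and 3 were. The shares over all protein-coding genes were 17.4% and 33.5%. Within 30 kb of the TSS the counts were 6 and 9 immediate early genes and 0 and 2 ERK outputs, where the shares over all genes were 9.34% and 21.5%.

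**Figure D4:**
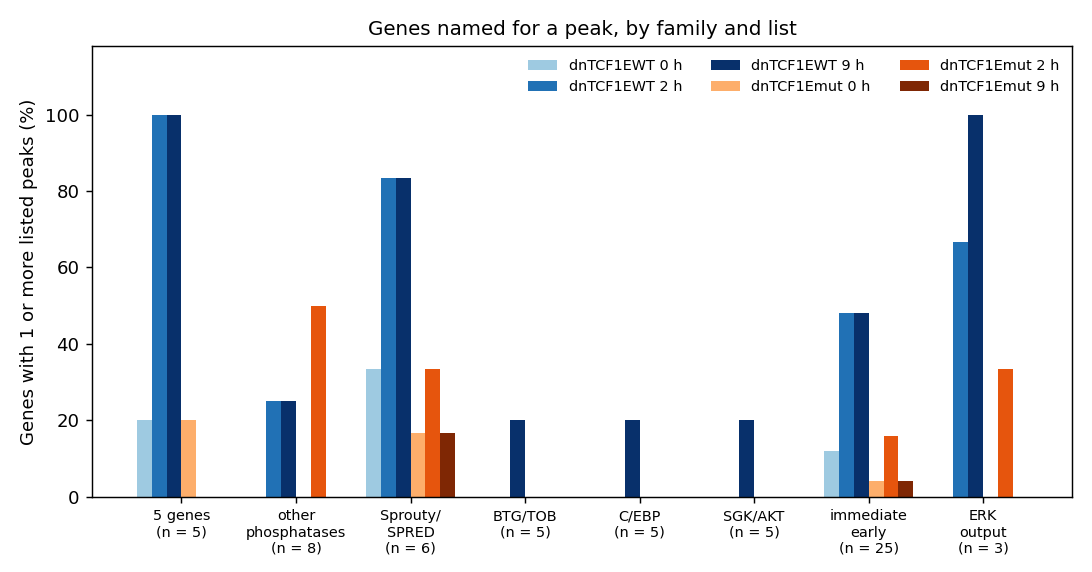
Percent of genes of each family with 1 or more listed peaks at any distance (y axis), for the 6 lists (colored bars), with the number of genes under each family. The 5 genes were all named for dnTCF1EWT at 2 and 9 h, and the BTG and TOB, C/EBP and SGK and AKT families were named only at 9 h, for 1 of 5 genes each.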

How the data were processed

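The data are 6 ChIP-seq peak lists from DLD-1 cells, 1 for each of 2 FLAG-tagged proteins at 0, 2 and 9 h of induction. The authors aligned reads to hg19 with Bowtie2 2.0.0 after CASAVA 1.8.2, called peaks on pooled duplicates with MACS 1.3, and annotated them with HOMER 3.16. The deposited peak score is the MACS score. The GC and CpG contents deposited by the authors are fractions and are given in percent. The motif columns deposited by the authors are counts of matches within each peak, and their distance column places each center relative to the closest annotated TSS. The sample labels call the libraries first replicates, whereas the study describes pooling. Reads, inputs and nascent RNA were not analysed here.

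Peaks were assigned by the deposited gene name and ranked by score within each list. Peaks that shared 1 or more bases were counted as 1 region, with the highest-scoring partner used for ratios. Peaks whose HOMER annotation of the center named an Alu were counted as Alu peaks. The overlap step was tested on simulated peaks. The members and lists of genes were chosen with earlier results of these data known. Named genes are the 5 members, the related genes with a dnTCF1EWT 2 h score above 67 within 30 kb, 1 gene of nearest scores per member, and genes with another name within 100 kb (0 found). Other names, for counts of 5 or fewer, were chosen after their values were seen. The shares over all genes count RefSeq protein-coding genes, whose symbols were matched to the deposited names. Promoter sequences are from RefSeq on GRCh38.p14, and no coordinate was converted between builds. Peak sequences on hg19 were not used here. Alternatives changed the score limit, the distance window, the overlap, the 0 h and Alu peaks, the scaling of ratios and the motif unit. Python 3.11.15, NumPy 2.4.6, pandas 2.3.3 and matplotlib 3.10.9 were used.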

Additional observations from a re-analysis of the deposited data

Results flagged for a closer look

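From 0 to 2 h the number of listed peaks at the 5 genes changed by 6 for dnTCF1EWT and by -1 for dnTCF1Emut, which are opposite directions. At BTG1 alone it changed by 2 for dnTCF1EWT and by -1 for dnTCF1Emut, whose only peak was the 0 h peak in a TA repeat. Over all genes both lists grew from 0 to 2 h, from 1907 to 5585 peaks for dnTCF1EWT and from 708 to 1883 for dnTCF1Emut. The difference at the 5 genes was not tested, since each condition is 1 pooled list.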

How the results depend on the processing

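No paired analysis was possible because the duplicates of each condition were pooled into 1 list, and for the same reason no replicate could be left out. With scores above 67 the counts were 0 for dnTCF1EWT 0 h, 2 for 9 h and 0 for dnTCF1Emut 0 h, and with scores of 100 or more they were 0, 2, 0 and 0 for dnTCF1EWT 0, 2 and 9 h and dnTCF1Emut 0 h. Within 30 kb of the TSS they were 5 for dnTCF1EWT 9 h and 0 for dnTCF1Emut 0 h. Without centers in an Alu element, an alternative chosen after seeing the data, they were 0, 4 and 3 for dnTCF1EWT 0, 2 and 9 h. The dnTCF1Emut 2 and 9 h counts, already 0, could not fall under these filters, and they were also 0 when every peak within 100 kb of a TSS was counted. The number of shared regions was the same under both other definitions of overlap, the only alternatives run for it. Scaling by the median ratio of shared regions turned the log2 ratio of CEBPD to -0.13. Counting matches per kb turned the difference in short Helper sites between the 2 h peaks of the 5 genes and all 2 h peaks from -11.2 percentage points to 4.97 per kb. The score threshold and the unknown depth limit all counts.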
